A study of Homo sapiens with 7 samples.

Results

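The imprinted DLK1-DIO3 domain of human chromosome 14q32 holds one of the largest miRNA clusters in the genome. Of its mature miRNAs, 36 were followed here through 7 small RNA libraries of HepG2, an established liver cancer line. Members were chosen by name, from the 2652 mature miRNAs listed in each count file, and all 36 names were found. One library came from untreated cells (0 h, genotype given as WT). The other 6 came from cells labelled as TEAD1 knockdown, which had received either siRNA 1 or siRNA 2 against TEAD1, a DNA-binding partner of the Hippo pathway, for 24, 36 or 48 h, with 1 library for each siRNA and time. All cells grew in DMEM with fetal bovine serum and antibiotics. The labels name no library of cells given a control siRNA and do not say whether libraries came from separate cultures. TEAD1 mRNA is not measured by these files. The column headers of the untreated counts are spelled differently from those of the other 6. Whether the untreated library was processed in a separate run is not known. The siRNA, the transfection, the time in culture and any such run therefore cannot be told apart.

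In this domain the maternal chromosome transcribes the noncoding RNAs MEG3, MEG8 and MEG9 together with the miRNAs, while the paternal one transcribes the coding genes DLK1, RTL1 and DIO3. The miRNAs are cut from long transcripts of the maternal strand and are known for high levels in embryo, placenta and brain and low levels in adult liver, and higher levels have been described in a subset of liver tumours. A mature miRNA pairs with its targets mainly through its seed, bases 2 to 8 from the 5′ end, so members with different seeds have different predicted targets.

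The 36 members matched 38 loci in the RefSeq table (build GRCh38.p14), since miR-329-3p and miR-376a-3p have more than 1 hairpin, and at all 38 loci the RefSeq sequence equalled the one in the count files. All lie on the plus strand of chromosome 14 between 100869116 and 101066786, a span of 198 kb. By GENCODE release 29 (GRCh38), 27 loci lay in introns of noncoding transcripts of the same strand, 1 (miR-410-3p) in an exon of MEG9, and 10 between annotated genes. The 3 members with the most reads are printed first, because nearly all that can be said of change rests on them, and the 3 members of the miR-376 group follow as near-identical sequences without a single read. Capitals mark the seed, and the prefix hsa- (human) is left out of names after this paragraph.
hsa-miR-381-3p, chr14:101045968-101045989, plus strand, intron of MIR381HG: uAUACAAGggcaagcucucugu
hsa-miR-127-3p, chr14:100883035-100883056, plus strand, opposite an exon of RTL1: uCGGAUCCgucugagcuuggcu
hsa-miR-379-5p, chr14:101022071-101022091, plus strand, intron of MEG8: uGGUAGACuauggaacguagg
hsa-miR-376a-3p, chr14:101040825-101040845 for its MIR376A1 locus, plus strand, between genes: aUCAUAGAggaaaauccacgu
hsa-miR-376b-3p, chr14:101040497-101040518, plus strand, between genes: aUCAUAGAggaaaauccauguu
hsa-miR-376c-3p, chr14:101039732-101039752, plus strand, between genes: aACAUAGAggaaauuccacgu

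The 36 members carry 34 different seeds. Only 2 seeds were shared within the cluster, that of miR-376a-3p with miR-376b-3p and that of miR-485-3p with miR-539-3p, and all 4 of these miRNAs had 0 reads. A further 7 miRNAs of the files, which are not members, had the seed of a member, and together they held 48 reads over the 7 libraries. The highest of them were miR-362-3p, which has the seed of miR-329-3p (19 reads), miR-3118, with that of miR-134-5p (16 reads), miR-374c-5p, with that of miR-655-3p (11 reads), and miR-300, itself a miRNA of the region, with that of miR-381-3p (2 reads). The other 3 had 0 reads. The remaining 25 members had a seed found in no other miRNA of the files. The closest other mature sequence stood 3 edits (substitutions, insertions or deletions) from miR-381-3p, and this was miR-300. From miR-127-3p and from miR-379-5p the closest stood 7 edits away.

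Libraries held 13134601 to 15591345 reads, of which 6171851 were assigned to a miRNA in the untreated library and 1920832 to 3739729 in the siRNA-treated ones, that is 43.1% against 13.4% to 26.5% of all reads. Levels are given as reads per 1000000 miRNA reads (RPM) with exact Clopper-Pearson 95% intervals. A simpler limit for a count of 0, 3 reads, was 0.486 RPM in the untreated library and 0.802 to 1.56 RPM in the others. The upper end of the exact interval for 0 reads is somewhat higher, 0.598 RPM in the untreated library. Molecular identifiers are not part of the files, so these bounds hold for counting error alone. In bulk RNA, fewer cells with a miRNA and less of it per cell cannot be told apart. Among hepatocyte markers, miR-192-5p and miR-194-5p were present in every library, while miR-122-5p, the main hepatocyte miRNA, was low and uneven between libraries, from 3.92 to 48.9 RPM.

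The cluster was close to unread in all 7 libraries. Its 36 members together had 186 of the 20921391 miRNA reads, fewer than each of 333 single miRNAs had on their own. There were 18 members with at least 1 read in any library and 18 with none, against 1560 of all 2652 miRNAs with at least 1 read. A mean of at least 10 reads was reached by 0 of 36 members and by 458 of 2652 miRNAs (17.3%), and a mean of at least 1 read by 3 members (8.33%) and 920 miRNAs (34.7%). The same 3 members were the only ones with reads in every library, where 617 of all miRNAs (23.3%) were. In the untreated library 11 members had at least 1 read. With siRNA 1 there were 7, 10 and 5 such members at 24, 36 and 48 h, and with siRNA 2 there were 7, 6 and 7. In shares this was 30.6% of members in the untreated library and 13.9% to 27.8% in the treated ones, where all miRNAs gave 42.9% and 36.0% to 39.1%. The untreated library is also the deepest, where 1 read is 0.162 RPM against 0.267 to 0.521 RPM in the others, so the counts of detected members are not at equal depth.

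**Figure D1:**
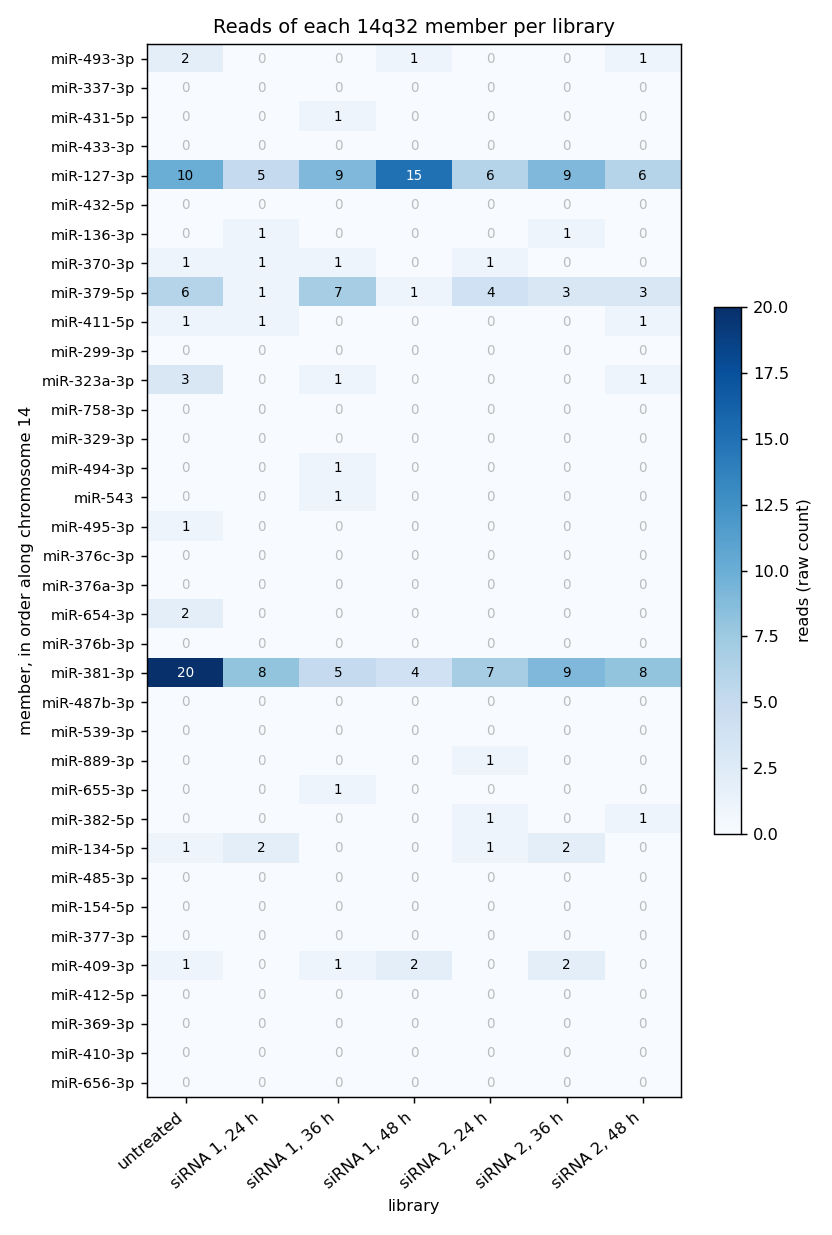
Raw reads of the 36 members (rows, in order along chromosome 14) in the 7 libraries (columns), with darker blue for more reads and each count printed in its cell. Only miR-127-3p, miR-379-5p and miR-381-3p have reads in every column, and 18 rows hold 0 throughout.

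Reads were concentrated in 3 members. miR-381-3p had 61, miR-127-3p 60 and miR-379-5p 25, together 146 of the 186 reads, or 78.5% (95% interval 71.9 to 84.2). In single libraries their share ran from 73.7% to 87.0%. Over all 7 libraries miR-381-3p stood at 2.92 RPM (interval 2.23 to 3.75), miR-127-3p at 2.87 RPM (2.19 to 3.69) and miR-379-5p at 1.19 RPM (0.773 to 1.76). In these pooled reads the first 2 could not be ordered, and the interval of miR-379-5p lay below both. In single libraries the order varied: miR-381-3p had 20 reads and miR-127-3p 10 in untreated cells but 4 and 15 with siRNA 1 at 48 h, and with siRNA 1 at 36 h miR-379-5p (7 reads) was above miR-381-3p (5 reads).

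miR-381-3p, processed from the MIR381HG transcript within the distal part of the cluster, had 20 reads in untreated cells. With siRNA 1 it had 8, 5 and 4 reads at 24, 36 and 48 h, and with siRNA 2 it had 7, 9 and 8. As levels these were 3.24 RPM untreated (interval 1.98 to 5.00), then 2.14, 2.60 and 1.89 RPM with siRNA 1, and 2.49, 4.35 and 3.82 RPM with siRNA 2. The untreated library had the highest raw count, but in RPM both later siRNA 2 libraries lay above it and the other 4 below. Per 1000000 of all reads, miRNA or not, all 6 treated libraries were lower, at 0.287 to 0.685 against 1.40. The treated mean was 2.88 ± 0.978 RPM (SD, n = 6).

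miR-127-3p lies on the strand opposite RTL1, the paternally expressed coding gene of the domain, and pairs along its whole length with that transcript. It had 10 reads in untreated cells, 5, 9 and 15 with siRNA 1 at 24, 36 and 48 h, and 6, 9 and 6 with siRNA 2. Its level was 1.62 RPM untreated (interval 0.777 to 2.98), 1.34, 4.69 and 7.10 RPM with siRNA 1, and 2.14, 4.35 and 2.86 RPM with siRNA 2. It was above the untreated value in 5 of 6 treated libraries, the exception being siRNA 1 at 24 h, but per 1000000 of all reads in only 1 of 6, siRNA 1 at 48 h (1.08 against 0.699). The treated mean was 3.74 ± 2.08 RPM (SD, n = 6). Of these only the interval at 48 h with siRNA 1 (3.97 to 11.7) lay apart from that of the untreated library. That was the highest value of the 7, and siRNA 2 at the same time did not share it.

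miR-379-5p opens the long distal array of hairpins, a cluster known to be switched on by neuronal activity. It had 6 reads in untreated cells, 1, 7 and 1 with siRNA 1 and 4, 3 and 3 with siRNA 2. In RPM this was 0.972 untreated (interval 0.357 to 2.12), 0.267, 3.64 and 0.473 with siRNA 1, and 1.42, 1.45 and 1.43 with siRNA 2. The 3 values with siRNA 2 lay close together, while those with siRNA 1 held both the lowest and the highest of the series. Each of these levels rests on 1 to 7 reads, and all intervals overlapped that of the untreated library. The treated mean was 1.45 ± 1.20 RPM (SD, n = 6).

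The other 33 members together had 12 reads in the untreated library, 5, 7 and 3 with siRNA 1 and 4, 5 and 4 with siRNA 2, or 1.94 RPM untreated and 1.34 to 3.64 RPM treated. miR-134-5p, known for its part in dendritic spine growth in neurons, had 1 read untreated, 2, 0 and 0 with siRNA 1 and 1, 2 and 0 with siRNA 2. miR-409-3p had 1 read untreated, 0, 1 and 2 with siRNA 1 and 0, 2 and 0 with siRNA 2. miR-323a-3p had 3 reads untreated, 1 with siRNA 1 at 36 h and 1 with siRNA 2 at 48 h. These members came and went between libraries at a level where a single read decides.

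miR-370-3p, the lone member between the proximal and distal blocks, had 1 read in each of 4 libraries: untreated, siRNA 1 at 24 and 36 h, and siRNA 2 at 24 h. miR-493-3p had 2 reads untreated and 1 at 48 h with each siRNA. miR-411-5p, the neighbour of miR-379-5p, had 1 read untreated, 1 with siRNA 1 at 24 h and 1 with siRNA 2 at 48 h. miR-136-3p, another miRNA opposite RTL1, had 1 read with siRNA 1 at 24 h and 1 with siRNA 2 at 36 h. miR-382-5p had 1 read with siRNA 2 at 24 h and 1 at 48 h, and miR-654-3p had 2 reads, both untreated. A further 6 members had 1 read in all: miR-495-3p in the untreated library, miR-431-5p, miR-494-3p, miR-543 and miR-655-3p with siRNA 1 at 36 h, and miR-889-3p with siRNA 2 at 24 h. Untreated cells alone gave the reads of 2 members, and siRNA-treated cells alone those of 7, each with 1 or 2 reads. These counts are not at equal depth, with 6171851 miRNA reads in 1 untreated library and 14749540 in the 6 treated ones. The same counts over all miRNAs were not made, so nothing particular to the members is read from them.

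The 18 members without a read were miR-154-5p, miR-299-3p, miR-329-3p, miR-337-3p, miR-369-3p, miR-376a-3p, miR-376b-3p, miR-376c-3p, miR-377-3p, miR-410-3p, miR-412-5p, miR-432-5p, miR-433-3p, miR-485-3p, miR-487b-3p, miR-539-3p, miR-656-3p and miR-758-3p. Pooled over the 7 libraries, the limit of 3 reads allows each of them a level of up to 0.143 RPM. The upper end of the exact 95% interval is 0.176 RPM. Whether they are absent or below these limits is not detectable at this depth. Reads of miR-329-3p and miR-376a-3p could come from more than 1 locus, and how the counting treated such reads is not given in the sources used here. Of 139 mature miRNAs with several loci in the files 95 had reads. The part of this in the 2 members' counts was not tested.

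By position the members fall into 3 blocks, with a gap of more than 20 kb taken to start a new one. The proximal block, 7 members over 15.7 kb around RTL1 from miR-493-3p to miR-136-3p, had 67 reads in 4 members, of which miR-127-3p held 60. miR-370-3p alone had 4. The distal block, 28 members over 44.7 kb from miR-379-5p to miR-656-3p, had 115 reads in 13 members. At its far end, in MEG9, the last 4 members (miR-412-5p, miR-369-3p, miR-410-3p and miR-656-3p) had 0 reads in every library, while miR-409-3p just before them had 6. In the middle miR-654-3p, which lies among the miR-376 hairpins, had 2 reads where these had 0. In the untreated library the proximal block had 12 reads and the distal one 35. At 48 h with siRNA 1 the order was the other way, with 16 and 7. In the other 5 libraries the distal block had more, from 10 proximal and 16 distal at 36 h with siRNA 2 to 6 and 14 at 24 h with siRNA 2. No test was made of this split.

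The question put to the summed cluster was whether it stays silent when TEAD1 is targeted. The members' sum was 48 reads in untreated cells, 19, 28 and 23 with siRNA 1 at 24, 36 and 48 h, and 21, 26 and 21 with siRNA 2. The level was 7.78 RPM untreated (interval 5.73 to 10.3). With siRNA 1 it was 5.08, 14.6 and 10.9 RPM, and with siRNA 2 it was 7.48, 12.6 and 10.0 RPM. Both 24 h libraries lay below the untreated one and the other 4 above it, and all 6 intervals overlapped that of the untreated library. The treated mean was 10.1 ± 3.43 RPM (SD, n = 6), and the difference from untreated, 2.32 RPM, was smaller than that SD. By siRNA the means were 10.2 ± 4.79 RPM for siRNA 1 and 10.0 ± 2.54 RPM for siRNA 2 (SD, n = 3 each). By time they were 6.28 ± 1.69 RPM at 24 h, 13.6 ± 1.43 RPM at 36 h and 10.5 ± 0.607 RPM at 48 h (SD, n = 2 each). No p is given for the sum, since its members were chosen with results of these data known.

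The direction of this difference depended on the denominator. Per 1000000 of all reads in a library the sum was 3.35 untreated (interval 2.47 to 4.45), and 1.65 ± 0.279 (SD, n = 6) after siRNA, with a range of 1.35 to 1.98. On this scale all 6 treated libraries were lower, and the intervals of both 24 h libraries and of siRNA 2 at 48 h lay below that of the untreated library. The values of the siRNAs at one time were close, 1.35 and 1.35 at 24 h, 1.96 and 1.98 at 36 h, and 1.65 and 1.59 at 48 h. The lower share of miRNA reads in the treated libraries enters this scale for every miRNA, and over all tested miRNAs the median log2 fold change with it was -1.12. With library totals adjusted by TMM, edgeR's trimmed mean method, the sum was 9.33 untreated and 9.58 ± 2.66 treated (SD, n = 6).

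**Figure D2:**
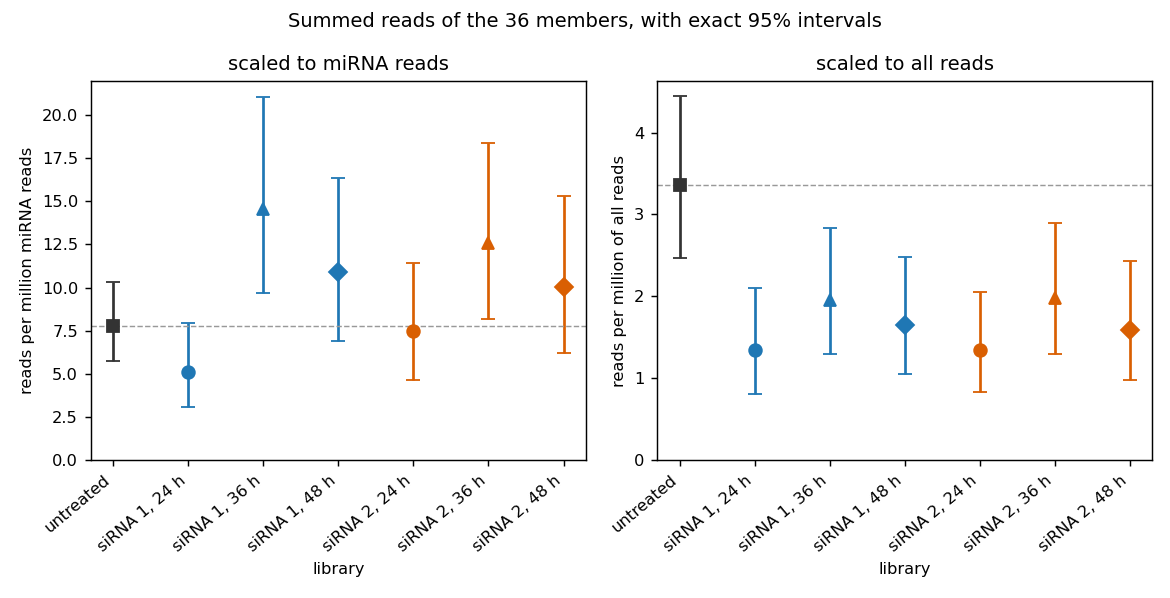
Summed reads of the 36 members in each library, per 1000000 miRNA reads (left) and per 1000000 of all reads (right), with exact 95% intervals and a dashed line at the untreated value. On the left both 24 h libraries lie below the line and 4 libraries above it (treated range 5.08 to 14.6), and on the right all 6 treated libraries lie below it (1.35 to 1.98 against 3.35).

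Markers of the cells' own type and of others also varied between libraries. The hepatocyte miRNA miR-122-5p was at 39.5 RPM untreated, 29.1, 48.9 and 4.73 RPM with siRNA 1, and 3.92, 7.73 and 4.30 RPM with siRNA 2, so that 3 libraries stood well above the other 4. miR-1-3p, a muscle miRNA, stood at 892 RPM with siRNA 1 at 36 h and at 18.7 to 61.3 RPM in the other 6 libraries. The summed level of 7 muscle markers was 20.9 RPM untreated and 19.5 to 906 RPM treated, with 5 of 7 detected and miR-208a-3p and miR-208b-3p at 0. The muscle miRNA miR-206 had 13 of its 15 reads with siRNA 1 at 36 h. The summed level of 6 fibroblast markers, all detected, was 144 RPM untreated and 788 and 855 RPM at 36 h, against 146 to 507 RPM in the other treated libraries. Most of it was miR-143-3p. miR-199b-5p and miR-145-5p, other markers of fibroblasts, ran from 0.356 to 5.25 RPM and from 0 to 12.1 RPM. Of 7 blood markers 6 were detected, with miR-223-3p at 0 and a summed level of 13.8 RPM untreated and 13.9 to 93.7 RPM treated. Of 6 neuron markers 5 were detected, mostly miR-128-3p, while the defining miR-124-3p was at 0, with 3427 RPM untreated and 3299 to 8762 RPM treated. Both markers of endothelium were detected, at 256 RPM and 216 to 501 RPM. The part of these in the cluster's level was not tested. Without siRNA 1 at 36 h the treated mean of the cluster was 9.20 ± 2.95 RPM (SD, n = 5), and the difference from untreated was 1.43 RPM.

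Single members were tested with the quasi-likelihood F-test of edgeR, with adjustment by Benjamini-Hochberg over all miRNAs that had a mean of at least 1 read. Only miR-381-3p, miR-127-3p and miR-379-5p passed this filter. Of these 3 members 0 were called over the 3 times against untreated, at an adjusted p threshold of 0.05, where edgeR called 0% of 920 miRNAs. At 24 h and at 36 h 0 of 3 were called beside 0% of 920, at 48 h 0 of 3 beside 0.109%, for 48 h against 24 h 0 of 3 beside 0.109%, and for siRNA 2 against siRNA 1 0 of 3 beside 0% of 898. At an unadjusted p under 0.05 the count of members was also 0 in all 6 comparisons, and DESeq2 and limma-voom each called 0 members. Over all 920 miRNAs and all times, 49 had an unadjusted p under 0.05 in edgeR, DESeq2 called 1 and limma-voom 0. The number of calls among all miRNAs changed when either 36 h library was left out. With that of siRNA 1 removed, edgeR called 74 of 920 miRNAs over all times (8.04%), 13 at 24 h, 98 at 36 h, 107 at 48 h and 134 for 48 h against 24 h (14.6%). With that of siRNA 2 removed, it called 25, 7, 11, 96 and 124 in the same order. The members called remained 0 of 3 in each of these fits, and nothing particular to them is read from 3 tested members. Without the count filter 18 members entered the fit and 0 were called, beside 12, 2, 10, 39 and 51 of 1560 miRNAs in the same order (0.769%, 0.128%, 0.641%, 2.50% and 3.27%). For siRNA 2 against siRNA 1 16 members entered and 0 were called, beside 0 of 1497 miRNAs. Since the labels do not tell cultures apart, these p-values reflect library-to-library spread, and that spread could be technical. In the comparisons of times, the libraries of one time differ in siRNA, so the spread there also holds any difference between the siRNAs.

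The intervals show how large a change these counts leave possible. For miR-381-3p over all times the log2 fold change was -0.49 ± 0.69 (SE), with a 95% interval of -1.96 to 0.97 (edgeR adjusted p = 0.947). For miR-127-3p it was 0.74 ± 0.79, with an interval of -0.94 to 2.43 (adjusted p = 0.947). For miR-379-5p it was 0.05 ± 1.18, with an interval of -2.45 to 2.56 (adjusted p = 0.995). On the linear scale these intervals run from 0.257-fold to 1.96-fold, from 0.520-fold to 5.38-fold and from 0.183-fold to 5.89-fold of the untreated level.

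Time and siRNA gave no call either. For 48 h against 24 h, which does not use the lone untreated library, miR-127-3p had a log2 fold change of 1.20 ± 0.76 (SE), the smallest p of any member and comparison (unadjusted 0.137, edgeR adjusted p = 0.503). Without siRNA 1 at 48 h this fell to 0.40, and over all single libraries left out it ran from 0.40 to 1.69. The levels of miR-127-3p were 7.10 and 2.86 RPM at 48 h (siRNA 1 and siRNA 2) against 1.34 and 2.14 RPM at 24 h. The counting interval of siRNA 2 at 48 h (1.05 to 6.23) overlapped those of both 24 h libraries. That of siRNA 1 at 48 h (3.97 to 11.7) lay above that of siRNA 1 at 24 h (0.434 to 3.12) but overlapped that of siRNA 2 at 24 h (0.784 to 4.65). Against untreated its values were -0.01 ± 0.89 at 24 h, 1.05 ± 0.89 at 36 h and 1.19 ± 0.89 at 48 h. This last value was 0.40 without siRNA 1 at 48 h and 1.66 without siRNA 2 at 48 h. miR-381-3p stood at -0.57 ± 0.81, -0.31 ± 0.82 and -0.59 ± 0.83 at the 3 times, and miR-379-5p at -0.36 ± 1.25, 0.95 ± 1.19 and -0.43 ± 1.30. These share the same untreated library. For siRNA 2 against siRNA 1 the log2 differences were 0.59 for miR-381-3p (95% interval -0.83 to 2.00), -0.35 for miR-127-3p (-1.75 to 1.05) and 0.40 for miR-379-5p (-1.69 to 2.49). All 3 intervals cover 0 and also changes of more than 2-fold, so like levels under both siRNAs are not shown.

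**Figure D3:**
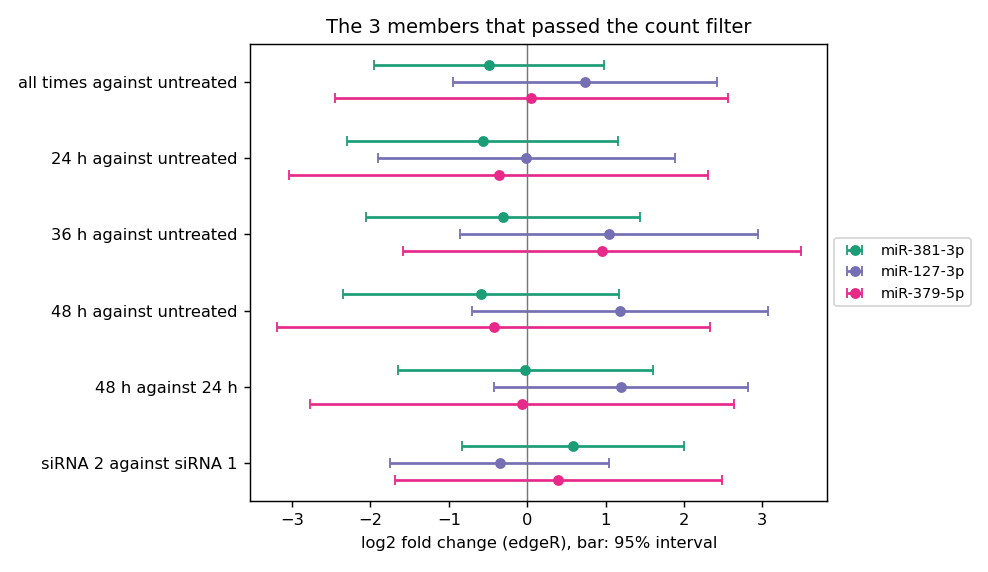
Log2 fold changes (points) with 95% intervals (bars) from edgeR for the 3 members with a mean of at least 1 read, in 6 comparisons. Every interval crosses the line at 0, and miR-379-5p, with 25 reads in all, has the widest, such as -2.45 to 2.56 over all times.

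The rest of the region was read in the same way. Of the 36 opposite arms of the members' hairpins 10 had a read, 13 reads in all, so the near absence was not confined to the arm chosen. miR-127-5p had 2 reads beside the 60 of miR-127-3p, miR-369-5p 2, miR-409-5p 2, and the others at most 1. A further 21 mature miRNAs of the cluster together had 4 reads in untreated cells and 1 to 5 in each treated library. The highest of these was miR-323b-3p, with 3 reads untreated and 4, 1 and 0 with siRNA 1, and 0 with siRNA 2, followed by miR-1185-1-3p with 3 reads and miR-1185-2-3p, miR-300 and miR-496 with 2 each.

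At the DIO3 end of the same imprinted domain the picture was different. miR-1247, whose hairpin lies within the noncoding DIO3OS on the minus strand at 101560287 to 101560422, about 494 kb beyond the last member, gave both arms in every library. miR-1247-3p was at 31.9 RPM untreated, 13.6, 7.81 and 26.0 RPM with siRNA 1, and 6.76, 25.1 and 20.5 RPM with siRNA 2. miR-1247-5p was at 12.2 RPM untreated, 6.68, 6.25 and 7.57 RPM with siRNA 1, and 4.98, 24.1 and 17.7 RPM with siRNA 2. With 432 reads miR-1247-3p alone had more than the 36 members together. Untreated cells had its highest level of the 7, while for miR-1247-5p the later siRNA 2 libraries were higher than untreated.

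Chromosome 14 miRNAs outside the imprinted domain were also read. miR-342-3p, from a host gene before DLK1, stood at 109 RPM untreated and 93.3 to 205 RPM treated, and miR-345-5p at 25.9 RPM and 23.8 to 61.1 RPM. miR-203a-3p, an epithelial miRNA that lies far beyond the cluster, was also low, at 0.972 RPM untreated and 0.356 to 5.73 RPM treated. Its 43 reads in all were still more than those of every member but miR-381-3p and miR-127-3p. Among miRNAs of other imprinted genes, miR-675-5p of H19 was at 185 RPM untreated and 86.5 to 159 RPM treated, while the other arm, miR-675-3p, was at 58.5 RPM and 60.4 to 114 RPM. miR-335-5p of MEST was at 14.3 RPM and 1.45 to 16.7 RPM, and its other arm, miR-335-3p, at 148 RPM and 92.7 to 141 RPM. miR-483-3p of IGF2 had 3 reads untreated and 0 in each treated library. Its other arm, miR-483-5p, had 1 read untreated, 2, 0 and 1 with siRNA 1 and 0, 1 and 0 with siRNA 2. The primate C19MC cluster, imprinted and known from placenta, had reads in 30 of 64 mature miRNAs and a summed level of 40.8 RPM untreated and 48.3 ± 17.0 RPM treated (SD, n = 6). Most of its 947 reads in all came from miR-522-3p (233), miR-516a-5p (216), miR-1283 (192) and miR-519a-5p (167). The next, miR-523-5p, had 20. These values are set beside the members as a scale, with no test of a difference between groups of miRNAs.

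**Figure D4:**
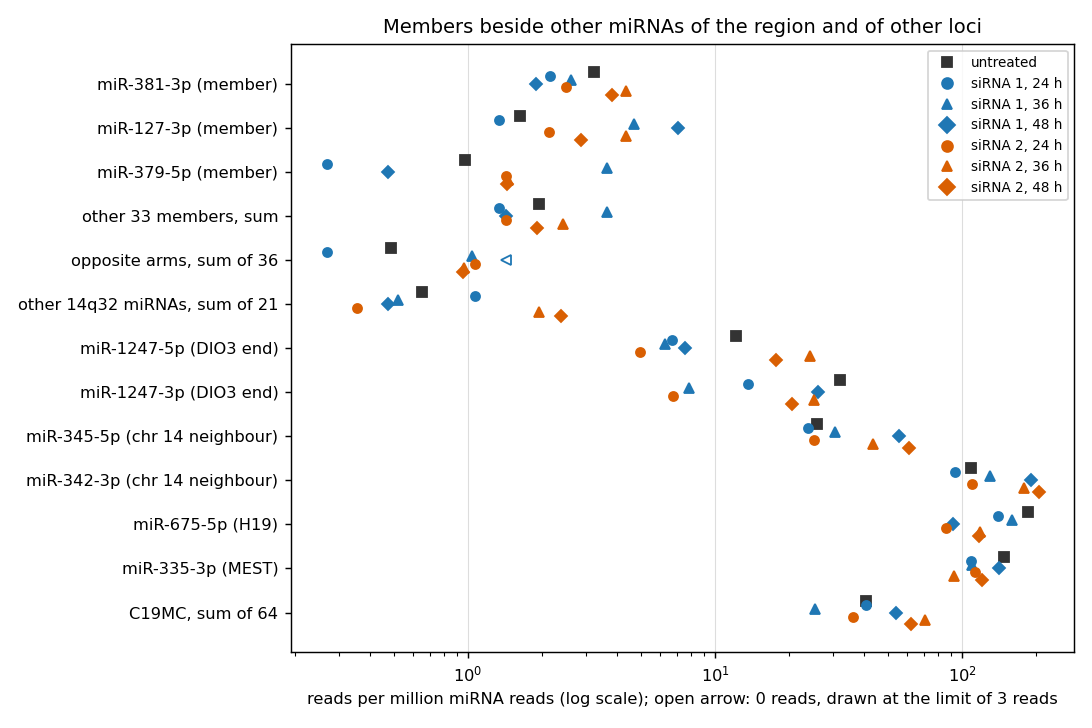
Levels in reads per 1000000 miRNA reads (log axis) of the 3 members with most reads, of summed groups of the region and of miRNAs from other loci, with 1 point per library and an open arrow, at the limit of 3 reads, where a library had 0. The 3 members lie between 0.267 and 7.10, and miR-342-3p and miR-675-5p between 86.5 and 205.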

How the data were processed

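Small RNA was sequenced from 7 HepG2 libraries made with a ligation-based kit from total RNA, per the labels' protocols. For each library the authors deposited a table of raw counts by mature miRNA, whose closing lines of unassigned reads were kept out of every total but that of all reads. Reads with no miRNA assigned were 56.9% of all reads in untreated cells and 73.5% to 86.6% after siRNA. Aligner, counter and build: not given in the sources used here.

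Members and lists were chosen with earlier results of these data known. RPM is reads per 1000000 miRNA reads. Tests used edgeR 4.0.16 (R 4.3.3) with TMM factors, time as a 4-level factor and a mean count of at least 1. The 2 libraries of each time gave the spread, and the same spread was assumed for the single untreated one. siRNA 2 against siRNA 1 used the 6 treated libraries with time as a factor. Intervals of fold changes come from the F statistic.

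Alternatives were DESeq2 1.42.0, limma-voom (limma 3.58.1), other scales and filters, the siRNA number as a block and each treated library left out. All reads as the scale of the fit was added after seeing the data. The fit was also run on simulated counts, with the same fixed spread for every miRNA and no deviating library. That spread was not matched to these data, so the run does not show how the fit performs on them.

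Given library by library are the members with the 10 highest read totals, ties included, and any member past the threshold. Beside them are named the 5 highest of the other miRNAs of the region, and fixed chromosome 14 and imprinted miRNAs. Markers that vary over 10-fold, the highest miRNAs of C19MC and the highest miRNAs sharing a seed are named too.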

Additional observations from a re-analysis of the deposited data

Results flagged for a closer look

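With siRNA 1 at 36 h miR-379-5p stood at 3.64 RPM (7 reads), apart from the other 5 treated libraries, which lay between 0.267 and 1.45 RPM. The same library stood apart in the muscle miRNA miR-1-3p, at 892 RPM, and in the summed muscle markers, at 906 RPM. These last values are nearly 1 signal, since miR-1-3p had 1713 of the 1740 muscle-marker reads there. In 64 tests of a gap over 34 measures 3 gaps were found, and chance gives about 1 in 20, which for this number of tests is about as many. The measures overlap, and a count of gaps does not weigh their size, so it decides on no single gap. The gap was 0.650 of the range for miR-379-5p and 0.951 for miR-1-3p, where 0.625 was the threshold. In the other 5 treated libraries miR-1-3p had 59 to 127 reads.

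The summed cluster moved to opposite sides of the untreated level at different times. At 24 h both libraries were lower, by a mean difference of -1.50 RPM, while at 36 h both were higher, by 5.79 RPM, and at 48 h both were higher, by 2.67 RPM. The difference between times was not tested, and all share the untreated library. With TMM-adjusted totals the untreated value was 9.33, and both 24 h libraries (5.72 and 8.47) remained below it and both 36 h libraries (13.7 and 10.8) above, but at 48 h 1 library was above (9.78) and 1 below (8.99). With DESeq2 size factors the untreated value was 8.65, and at 24 h 1 library was below it (5.58) and 1 above (8.83), while both libraries at 36 h (13.6 and 10.6) and at 48 h (9.75 and 8.83) were above. Per 1000000 of all reads all 6 treated libraries were below.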

How the results depend on the processing

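The count of members called was 0 in all 84 alternative fits, though shares called over all miRNAs reached 14.6% without siRNA 1 at 36 h, and with all reads as the scale 11.1% over all times and 11.2% at 48 h. DESeq2 called 12 of 920 at 48 h and 26 for 48 h against 24 h. The 84 fits include those with the siRNA number as a replicate block, in the 5 comparisons that allow it. Over the 920 miRNAs with a mean of at least 1 read, the differences between siRNAs correlated at 0.0965, -0.0433 and -0.0630 between times. Only 458 miRNAs had a mean of at least 10 reads, and counting error lowers such correlations. They therefore do not settle whether the siRNA numbers pair the libraries. Over all miRNAs the block raised the calls from 0, 0, 0, 1 and 1 to 3, 2, 2, 26 and 30 (all times, 24, 36 and 48 h against untreated, and 48 h against 24 h). With a minimum mean count of 10, 0 members were tested. Those fits are among the 84, and their 0 calls were fixed in advance, so only 78 of the 84 tested any member.

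The difference of the summed cluster, siRNA-treated minus untreated, ran from 1.43 to 3.33 RPM with one treated library left out, and was 0.26 with TMM, 0.88 with DESeq2 size factors and -1.71 per 1000000 of all reads. The number of members counted as detected moved with the threshold. At 3 reads it was 4 in untreated cells, 2, 3 and 2 with siRNA 1 and 3, 3 and 3 with siRNA 2. At 10 reads it was 2 in untreated cells, 0, 0 and 1 with siRNA 1 and 0 with siRNA 2 at each time.

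The sign of the uncalled log2 fold changes turned in 10 of 78 alternatives for miR-127-3p, 14 of 78 for miR-379-5p and 4 of 78 for miR-381-3p, and the cause was not tested. With all reads as the scale, miR-127-3p stood at -0.29 over all times and -0.088 at 36 h, and miR-379-5p at -0.98 and -0.21. For miR-127-3p at 24 h the value was 0.13 with DESeq2, 0.0030 with limma-voom, 0.11 with DESeq2 size factors and 0.074 with total counts. With total counts miR-381-3p was at 0.11 at 36 h and 0.30 for 48 h against 24 h, and miR-379-5p at 0.25 for 48 h against 24 h. With limma-voom miR-379-5p was at -0.023 over all times and 0.17 for 48 h against 24 h. With one treated library left out, miR-379-5p ran from -0.47 to 0.33 over all times, from -1.89 to 0.45 at 24 h, from -1.41 to 0.14 at 48 h, from -1.02 to 1.43 for 48 h against 24 h and from -0.35 to 1.96 for siRNA 2 against siRNA 1. miR-127-3p ran from -0.45 to 0.31 at 24 h and from -0.77 to 0.18 for siRNA 2 against siRNA 1, and miR-381-3p from -0.61 to 0.39 for 48 h against 24 h. No member exceeded 20 reads in a library, which limits the precision of each of these values.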
